A study of Homo sapiens with 3 samples.

Results

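Binding of the PRCC-TFE3 fusion protein was examined at 6 genes for folliculin, its partners and Rag GTPases: *FLCN*, *FNIP1*, *FNIP2*, *RRAGA*, *RRAGC* and *RRAGD*. The genes were chosen by their function, with earlier results of these data known. Every deposited peak that lay inside one of them or within 10 kb of it was taken. In the narrowPeak lists, 47 of 109205 peaks in replicate 1 and 34 of 81300 peaks in replicate 2 met this rule, and in the BED lists, which the authors deposited as a separate set of peaks, 34 of 84248 and 26 of 63535 did so. The data came from the HK-2 line, which was derived from human proximal tubule epithelium, after HA-PRCC-TFE3 had been induced for 24 h with 0.2 µg/mL doxycycline. There were 2 chromatin immunoprecipitation (ChIP) libraries, called replicate 1 and replicate 2, in which DNA bound to the tagged fusion was recovered through HA, and 1 library of input DNA from cells under the same treatment. The fusion came from an inducible transgene, and uninduced cells were not analysed here. The estimated depth was 12235754 tags in replicate 1 and 7418533 in replicate 2, and the input DNA was deeper, with 21692377 to 21698071 tags as estimated from the BED lists. These libraries measured no expression, so the cell line label was not checked against marker genes. The study also sequenced RNA of its inducible HK-2 cells without and with doxycycline, and those data were not used here.

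Folliculin, the product of *FLCN*, forms a complex with either FNIP1 or FNIP2. This complex activates the GTPase step of RagC and RagD at the lysosome, and these proteins, each paired with RagA or RagB, bring mTORC1 to the lysosome when amino acids are plentiful. RagC and RagD also present TFE3 and its relatives TFEB and MITF to mTORC1, which phosphorylates them and keeps them in the cytoplasm. Loss of folliculin lets these factors enter the nucleus, and germline loss of *FLCN* causes Birt-Hogg-Dubé syndrome with kidney tumors. These factors are known to bind E-boxes and the related CLEAR and M-box elements of lysosomal genes, among them *RRAGD* and *FLCN*. The 6 genes were therefore grouped as possible members of a feedback loop around TFE3, and whether such a loop operates in these cells was not tested.

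The promoter sequences of 4 of the 6 genes were found in RefSeq (GRCh38.p14), namely *FLCN*, *FNIP1*, *FNIP2* and *RRAGC*. No sequence was found there for *RRAGA* and *RRAGD*, although a peak lay at the promoters of all 6 genes. The sequences found are shown because they differ in the elements that MiT/TFE proteins recognize. Each sequence runs from 250 bases before the annotated start to 30 bases after it. The peaks themselves are in hg19, and no coordinates were moved between the builds, so the RefSeq start need not be the start from which peak distances were measured. Capitals mark the E-box CACGTG and the word GTCATATGAC. In the internal *FNIP2* window they mark CATGTG, which lies on the opposite strand and so appears as its reverse complement. The *FNIP1* promoter is at chr5:131796988-131797267 on the minus strand, that of *RRAGC* at chr1:38859743-38860022 on the minus strand, and that of *FLCN* at chr17:17237139-17237418 on the minus strand. *FNIP2* had 2 entries on the plus strand, the first at chr4:158768776-158769055 and an internal one at chr4:158805589-158805868.
FNIP1: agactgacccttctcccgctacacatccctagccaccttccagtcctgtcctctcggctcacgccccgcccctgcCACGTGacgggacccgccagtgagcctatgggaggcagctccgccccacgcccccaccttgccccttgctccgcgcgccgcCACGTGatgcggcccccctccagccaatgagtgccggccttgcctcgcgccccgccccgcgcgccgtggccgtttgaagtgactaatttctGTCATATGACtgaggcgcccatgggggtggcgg
RRAGC: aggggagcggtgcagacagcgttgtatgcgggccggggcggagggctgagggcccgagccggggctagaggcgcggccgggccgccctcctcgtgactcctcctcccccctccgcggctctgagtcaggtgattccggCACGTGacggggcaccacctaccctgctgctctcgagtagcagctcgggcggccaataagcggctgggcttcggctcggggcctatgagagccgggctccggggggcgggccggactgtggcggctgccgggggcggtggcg
FNIP2 first start: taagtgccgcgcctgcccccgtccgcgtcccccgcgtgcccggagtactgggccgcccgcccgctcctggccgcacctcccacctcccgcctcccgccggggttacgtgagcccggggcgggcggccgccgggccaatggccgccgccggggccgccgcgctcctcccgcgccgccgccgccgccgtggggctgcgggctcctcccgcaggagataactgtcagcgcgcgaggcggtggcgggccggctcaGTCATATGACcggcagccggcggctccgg
FNIP2 internal start: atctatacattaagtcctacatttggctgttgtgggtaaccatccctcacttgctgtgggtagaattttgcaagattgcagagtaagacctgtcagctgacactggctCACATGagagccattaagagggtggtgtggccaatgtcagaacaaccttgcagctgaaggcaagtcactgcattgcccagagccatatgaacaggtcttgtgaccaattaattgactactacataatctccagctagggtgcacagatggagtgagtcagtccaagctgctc
FLCN: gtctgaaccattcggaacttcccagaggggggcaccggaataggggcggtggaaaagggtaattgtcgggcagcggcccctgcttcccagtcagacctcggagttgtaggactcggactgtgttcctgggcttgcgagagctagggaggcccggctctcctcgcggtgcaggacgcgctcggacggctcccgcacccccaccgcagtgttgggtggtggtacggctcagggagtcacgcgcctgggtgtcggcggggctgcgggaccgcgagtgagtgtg

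Among these windows, the E-box CACGTG occurred 2 times in *FNIP1*, from 175 to 170 and from 94 to 89 bases before the start, and 1 time in *RRAGC*, from 112 to 107 bases before the start. All 3 copies were followed by A. CACGTG is equal to its own reverse complement, and 7.26% of all 35116 RefSeq promoter windows of 300 bases held it. The longer CACGTGA, which was picked after the sequences were seen and contains CACGTG, was present on either strand in 3.71% of windows. The palindrome TCACGTGA, which also contains CACGTG and was present in 0.98% of all windows, was found in none of the 4 genes. The same applied to the full CLEAR palindrome, which extends it by G before and C after and was present in 0.353%. CATGTG, the core of the M-box, was present on either strand in 11.1% of all windows. Its longer form TCATGTG, which contains it, was present in 2.92%. Both were found only in the internal *FNIP2* window, from 142 bases before that start. The *FLCN* window held none of the motifs above. The summits of the *FLCN* promoter peaks lay 499 and 346 bp upstream of the start used for the peaks. If this start is also the RefSeq start, both summits lie upstream of the window, where no motif was searched. The absence therefore does not describe the sequence under the *FLCN* peaks. The first *FNIP2* window also held none of these motifs. However, the word GTCATATGAC, again equal to its reverse complement, was shared by *FNIP1*, where it spanned the start, and *FNIP2*, from 2 to 11 bases after the first start. It was the longest such palindrome that 2 of the genes shared, it was found after the sequences were seen, and 6 of the 35116 windows (0.0171%) held it. These matches describe the letters only.

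To determine whether PRCC-TFE3 occupied the promoters, peaks within 1 kb of each gene's start were collected. All 6 promoters had a narrowPeak region with a peak of both replicates. The background, the share of all 2-kb tiles on chromosomes 1 to 22 and X that touched a shared region, was 5.06%. It was 7.23% for replicate 1 peaks and 5.46% for replicate 2 peaks. These tiles cover the whole genome and not promoters, and the promoters of other genes were not analysed here, because the gene annotation at hand was in another build. Since the genes were chosen with earlier results of these data known, no test against this background was made. No input DNA peak lay in any of the 6 windows.

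**Figure D1:**
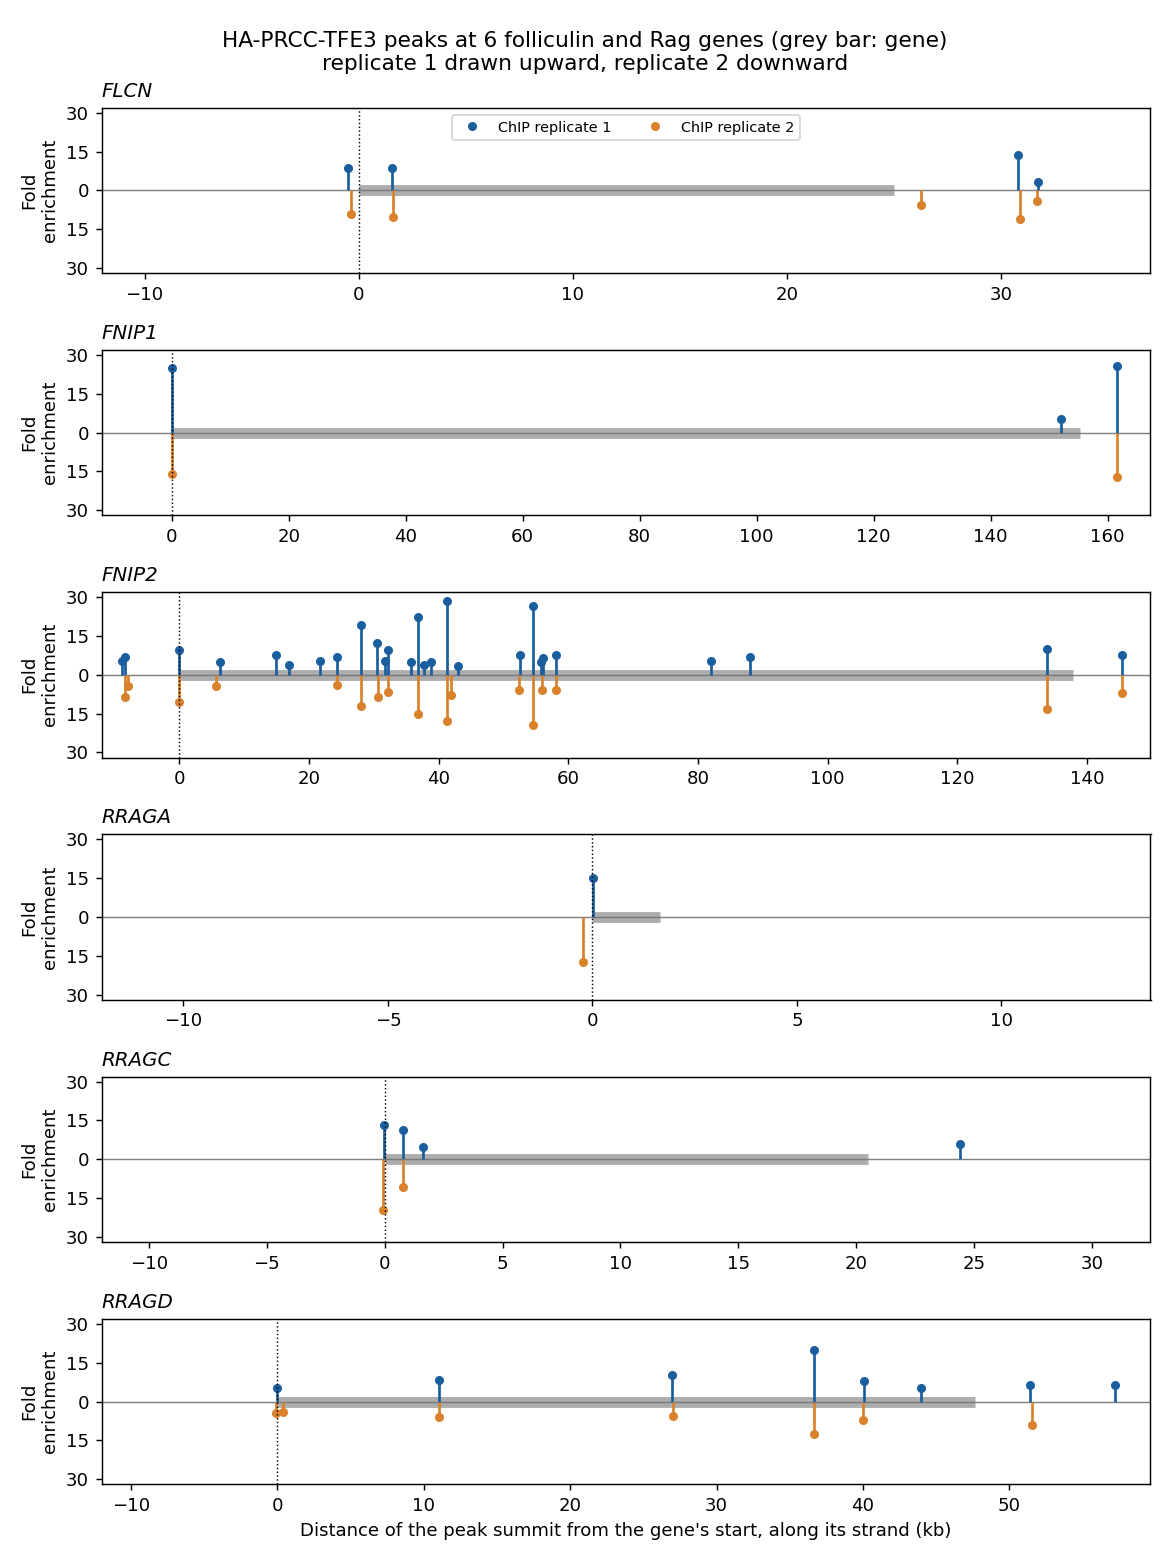
Fold enrichment of each narrowPeak peak (vertical axis, replicate 1 upward and replicate 2 downward) against the distance of its summit from the start of the gene (horizontal axis, kb along the strand) for the 6 genes, where the grey bar is the gene and the dotted line its start. Peaks of both replicates stand at every start, *FNIP2* has 27 and 17 peaks, most of them inside the gene, and *FNIP1* has 3 and 2.

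*FLCN* encodes folliculin itself and lies on chromosome 17 from 17115527 to 17140502 on the minus strand. Its promoter region, from 17140444 to 17141154, had fold enrichments over background, as given by the authors' peak caller, of 8.48 in replicate 1 and 9.19 in replicate 2 (8.83 ± 0.499, SD, n = 2). Thus the replicates were close in fold enrichment here. Among all peaks of their lists these values were at the percentiles 57.2 and 65.4, that is, in the middle of the range. The summits lay 499 and 346 bp upstream of the start, 153 bp apart, and were farther from the start than those of the strongest peak in any of the other 5 promoters. The BED peak there contained 15 tags in each replicate, with 0 input tags in replicate 1 and 1 in replicate 2. A further region in the gene, 1544 and 1603 bp downstream of the start and so just outside the promoter window, had fold enrichments of 8.56 and 10.4. The strongest *FLCN* region was not at the promoter. It lay beyond the 3′ end, from 17109447 to 17109980, with fold enrichments of 13.8 and 11.2 (12.5 ± 1.87). Next to it, a weak region from 17108668 to 17108931 had values of 3.28 and 4.02. In the RefSeq gene order, the protein-coding gene that follows *FLCN* on that side is *PLD6*, a member of the phospholipase D family. Its position in hg19 was not used, so whether this region belongs to *FLCN* or to *PLD6* was not tested.

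*FNIP1* and *FNIP2* encode the interchangeable partners of folliculin, and their patterns of peaks differed. *FNIP1* lies on chromosome 5 from 130977407 to 131132756 on the minus strand. Its promoter region, from 131132622 to 131133252, was the strongest promoter in replicate 1, with a fold enrichment of 25.1, and had 16 in replicate 2 (20.6 ± 6.43, SD, n = 2). These values were at the percentiles 97.2 and 89.5 of their lists. The summits lay 41 and 58 bp upstream of the start, 17 bp apart, and the BED windows contained 46 and 22 tags with 0 input tags. An equally strong region, from 130970826 to 130971516, lay beyond the 3′ end of the gene, with fold enrichments of 25.7 and 17.3 (21.5 ± 5.91). It contained 49 and 26 tags. In the RefSeq order the next protein-coding gene on that side is *RAPGEF6*, which encodes an exchange factor for Rap GTPases, and which of both genes the region belongs to was not tested. The remainder of *FNIP1* was nearly free of peaks. The only other peak, near the 3′ end and in replicate 1 alone, had a fold enrichment of 5.35, and the 152 kb between it and the promoter region held none in either replicate.

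In contrast, *FNIP2*, on chromosome 4 from 159690146 to 159827954 on the plus strand, had 27 peaks in replicate 1 and 17 in replicate 2, with 23 and 13 of them inside the gene and outside the promoter. Its promoter region was moderate, with fold enrichments of 9.50 and 10.5 (10 ± 0.733, SD, n = 2), at the percentiles 63.9 and 72.5. The summits lay 103 and 79 bp upstream of the start, and the BED windows contained 25 and 21 tags with 0 input tags. Thus the *FNIP2* promoter was weaker in fold enrichment than that of *FNIP1* in both replicates, although the tags did not differ beyond counting error after adjustment, as described below.

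Most of the *FNIP2* peaks formed a dense stretch within the gene. Between 24.2 and 58.1 kb downstream of the start, a stretch whose limits were chosen after the peaks were seen, there were 16 of the 27 replicate 1 peaks and 11 of the 17 replicate 2 peaks. They formed 16 regions, of which 10 were shared. The strongest by the lower value of both replicates, from 159744332 to 159745094, had fold enrichments of 26.7 and 19.3 (23 ± 5.30). The region from 159731057 to 159732298 had 28.4 and 18.0 (23.2 ± 7.34). Its main summits lay 41.3 kb downstream of the start and contained 58 and 27 tags. Values were 22.5 and 15 between 159726540 and 159727157, and 19.3 and 12.2 between 159717922 and 159718335. These 4 regions were all stronger than the *FNIP2* promoter in both replicates. The summits of the region from 159726540 lay 36747 and 36755 bp from the start in hg19. The internal start of *FNIP2* in RefSeq, whose window held the M-box core, lies 36813 bp from the first start in GRCh38. Whether the peak sits on that start was not tested, since no hg19 sequence was used. Outside the stretch, a region at 134 kb, near the 3′ end, had fold enrichments of 9.92 and 13.2. Flanking regions, one 8.35 kb upstream of the start and another beyond the 3′ end from 159835396, had 6.84 and 8.42 and 7.49 and 7.06.

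The Rag genes were then compared. *RRAGA* encodes RagA, a GTPase that, like its relative RagB, is loaded with GTP when amino acids are present. It lies on chromosome 9 from 19049372 to 19051021 on the plus strand. A single broad region, from 19048959 to 19049789, covered its start, with fold enrichments of 15 and 17.3 (16.2 ± 1.66, SD, n = 2), at the percentiles 85.0 and 91.6. No other peak lay within 10 kb of the gene in either replicate. The summit was 9 bp downstream of the start in replicate 1 and 239 bp upstream in replicate 2. This distance of 248 bp was the widest among all 29 shared regions of the 6 genes, and the BED windows of both replicates, with 30 and 27 tags, did not overlap. Input tags in these windows were 0 and 2.

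*RRAGC*, which encodes RagC, a substrate of the folliculin complex, lies on chromosome 1 from 39305015 to 39325495 on the minus strand. It was the only gene with 2 shared regions in its promoter window. The first, from 39325251 to 39325747, had fold enrichments of 13.3 and 19.8 (16.6 ± 4.67, SD, n = 2), at the percentiles 79.9 and 94.4, and its summits lay 16 and 55 bp upstream of the start. Thus *RRAGC* had the strongest promoter in replicate 2. The second, from 39324577 to 39324968, lay 762 and 759 bp downstream of the start, with nearly equal fold enrichments of 11.2 and 10.9 (11 ± 0.222). The BED peaks contained 29 and 33 tags at the first region and 21 and 16 at the second. Both other *RRAGC* peaks, inside the gene and in the downstream flank, were in replicate 1 only, with fold enrichments of 4.81 and 5.88.

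*RRAGD* encodes RagD, the close relative of RagC, and lies on chromosome 6 from 90074355 to 90121989 on the minus strand. Its promoter had the lowest fold enrichment of the 6 in both replicates. The region from 90121903 to 90122191 had fold enrichments of 5.35 and 4.30 (4.83 ± 0.742, SD, n = 2), at the percentiles 26.1 and 5.36, and its summits lay 40 and 62 bp upstream of the start. A further promoter peak, with a fold enrichment of 4.09, was in replicate 2 only. The BED windows at the start contained 18 and 8 tags with 1 and 2 input tags. The main *RRAGD* region was inside the gene, 36.7 kb downstream of the start, from 90085071 to 90085542, where fold enrichment was 20.1 and 12.7 (16.4 ± 5.23) and the windows contained 38 and 20 tags. Shared regions with 10.4 and 5.68, with 7.95 and 7.01 and with 8.32 and 5.99 also lay inside the gene, and another with 6.22 and 8.98 lay beyond its 3′ end. At the edge of the 10 kb window, the outermost *RRAGD* peak, 9.44 kb beyond the 3′ end, had a fold enrichment of 6.42 in replicate 1 only. The first region outside it, at 11.6 kb, had 15 and 16.9. It was not counted.

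Ranked by the lower fold enrichment of both replicates, the strongest region of each gene was compared with all 70426 shared regions. That of *FNIP2* was number 4215, in the top 5.99%, followed by *FNIP1* at 8.57%, *RRAGA* at 13.2%, *RRAGC* at 18.2%, *RRAGD* at 20% and *FLCN* at 25.8%. This strongest region was at the promoter in *RRAGA* and *RRAGC*, inside the gene in *FNIP2* and *RRAGD*, and beyond the 3′ end in *FLCN* and *FNIP1*. By this ranking, none of the 6 genes reached the top 5% of shared regions. Within the list of each replicate, the *FNIP2* region was at the percentiles 97.9 and 94.1 of fold enrichment. The *FNIP1* region was at 97.5 and 91.6. The median fold enrichment of the member peaks was 7.49 in replicate 1 and 8.42 in replicate 2, and the medians of the whole lists were 7.49 and 7.32.

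The levels at the promoters were next compared by ChIP tags, which do not depend on the input. The strongest BED peak within 1 kb of each start was used, since these windows have equal width within a replicate. In replicate 1, tags per 10000000 tags of the library were 37.6 at *FNIP1* (exact 95% Poisson interval, 27.5 to 50.1), 24.5 at *RRAGA* (16.5 to 35.0), 23.7 at *RRAGC* (15.9 to 34.0), 20.4 at *FNIP2* (13.2 to 30.2), 14.7 at *RRAGD* (8.72 to 23.2) and 12.3 at *FLCN* (6.86 to 20.2). Thus *FNIP1* was highest, and its interval overlapped that of every gene but *FLCN* and *RRAGD*. In replicate 2, the values were 44.5 at *RRAGC* (30.6 to 62.5), 36.4 at *RRAGA* (24.0 to 53.0), 29.7 at *FNIP1* (18.6 to 44.9), 28.3 at *FNIP2* (17.5 to 43.3), 20.2 at *FLCN* (11.3 to 33.3) and 10.8 at *RRAGD* (4.66 to 21.2). *FLCN* and *RRAGD* thus held the last places in both replicates, whereas the first place changed from *FNIP1* to *RRAGC*. The mean over both replicates was 34.1 ± 14.7 at *RRAGC* (SD, n = 2), 33.6 ± 5.61 at *FNIP1*, 30.5 ± 8.40 at *RRAGA*, 24.4 ± 5.57 at *FNIP2*, 16.2 ± 5.63 at *FLCN* and 12.7 ± 2.78 at *RRAGD*.

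**Figure D2:**
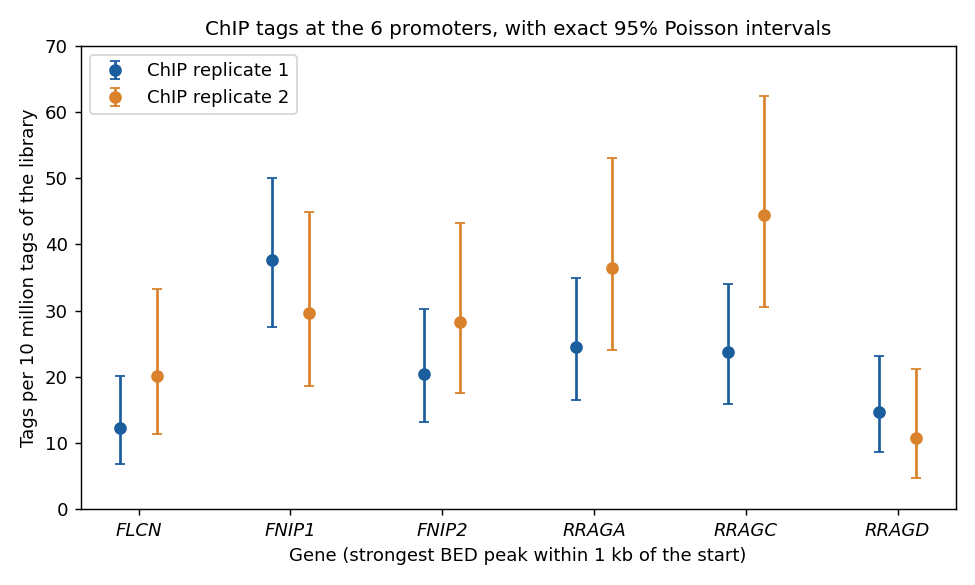
ChIP tags per 10000000 tags of the library (vertical axis) in the strongest BED peak within 1 kb of the start of each gene (horizontal axis), where points are replicates and bars are exact 95% Poisson intervals. *FLCN* and *RRAGD* have the lowest values in both replicates, from 10.8 to 20.2, and most intervals of the other 4 genes overlap.

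All 15 pairs of promoters were tested in each replicate with an exact binomial test on the tags (two-sided, adjusted by Benjamini-Hochberg over 30 tests). Of these, 4 (13.3%) differed at an adjusted p below 0.05. In replicate 1, *FNIP1* had 3.07 times as many tags as *FLCN* (95% interval, 1.68 to 5.91; exact adjusted p = 0.00168) and 2.56 times as many as *RRAGD* (1.45 to 4.68; exact adjusted p = 0.00617). In replicate 2, *RRAGC* had 4.12 times as many tags as *RRAGD* (1.87 to 10.3; exact adjusted p = 0.00168), and *RRAGA* had 3.38 times as many (1.49 to 8.60; exact adjusted p = 0.0141). No pair passed in both replicates. *FNIP1* over *RRAGD* came nearest, with a ratio of 2.75 in replicate 2 (1.18 to 7.14; exact adjusted p = 0.0728). Between *FNIP1* and *FNIP2* the ratio in replicate 1 was 1.84 (1.11 to 3.13; exact adjusted p = 0.0728). When the tags of both replicates were summed, 6 of 15 pairs passed, in which *FNIP1*, *RRAGA* and *RRAGC* each exceeded *FLCN* and *RRAGD*. In either order of the genes, no neighbours differed beyond counting error. These tests cover counting error only, and differences in copy number or mappability between the loci were not tested.

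To assess the agreement of the replicates, the 49 union regions at the 6 genes were examined, of which 29 were shared. This share, 59.2%, was close to the 59.8% of all union regions. Replicate 2 recovered 30 of the 47 peaks of replicate 1 (63.8%), compared with 65.3% over the whole list. Replicate 1 in turn recovered 31 of the 34 peaks of replicate 2 (91.2%), compared with 88.5%. The peaks that were not recovered had fold enrichments up to 7.49 in replicate 1, which is the median of that list, and up to 5.78 in replicate 2. At the highest of them, inside *FNIP2* from 159704985 to 159705196, the BED peaks of both replicates did overlap, with 12 and 8 tags. *FNIP2* accounted for 12 of the 17 unrecovered replicate 1 peaks. The median distance between summits in the shared regions was 24 bp, compared with 31 bp over all shared regions. With q below 1e-05, 39 replicate 1 and 28 replicate 2 member peaks were kept, where the whole lists kept 82.4% and 78.2%. The replicate 2 peak at the *RRAGD* start was not among them.

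**Figure D3:**
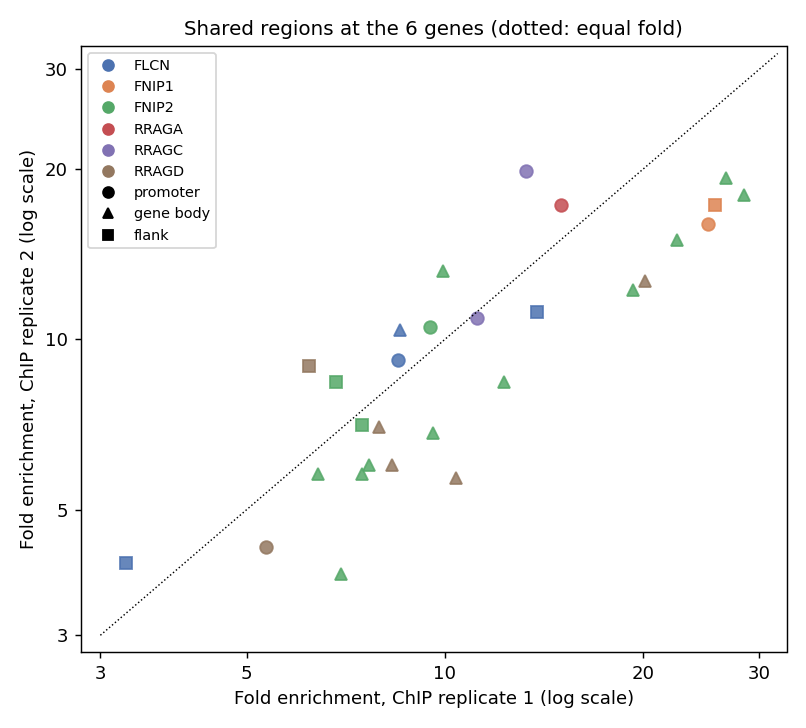
Fold enrichment in replicate 2 (vertical axis, log scale) against replicate 1 (horizontal axis, log scale) for the 29 shared regions of the 6 genes, where colors are genes, shapes are positions and the dotted line marks equal values. Of the 29, 20 regions lie below the line, and the *FNIP1* regions stand near the strongest *FNIP2* regions at the upper right.

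Fold enrichment was higher in replicate 1 in 20 of the 29 shared regions, compared with 72.6% of all shared regions. The regions at the starts of *FLCN*, *FNIP2*, *RRAGA* and *RRAGC* were among the 9 with a higher value in replicate 2. Tags were then compared in the 25 BED peaks of the 6 genes that could be matched between the replicates. A match needed exactly 1 BED peak in each replicate. Peaks called in 1 replicate alone, where a difference may be largest, were thus not tested. The share of replicate 2 in these tags ranged from 30.8% to 53.2%, around 39.8% over all matched peaks. An exact binomial test against that share, adjusted over all 55655 matched peaks by Benjamini-Hochberg, called 0 of the 25 peaks and 0% of all peaks. At an unadjusted exact p below 0.05 there was 1 of the 25, and 2.20% of all matched peaks. This peak was at the start of *RRAGC*, with 29 and 33 tags (53.2%; exact 95% interval, 40.1% to 66.0%; exact p = 0.0374, adjusted p = 1). With 8 to 58 tags per window, small differences between the replicates were not detectable at this depth.

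Input DNA was used as the background within the same windows. Of the BED peaks of the 6 genes, 13 of 34 in replicate 1 and 10 of 26 in replicate 2 had a value read as 0 input tags, compared with 46.1% and 46.9% over the lists. The highest number of input tags at any of them was 4. Both *FNIP1* windows had 0 input tags in each list, whereas windows of *FLCN* and *RRAGD* had up to 4. Since a single input library served both lists, these values are not independent.

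Finally, the density of peaks was compared with that of the chromosome. The window of *FNIP2* had 1.71 narrowPeak peaks per 10 kb in replicate 1 and 1.08 in replicate 2, compared with 0.326 and 0.226 on chromosome 4. In contrast, the window of *FNIP1*, which was longer, had 0.171 and 0.114, below the 0.266 and 0.190 of chromosome 5. *RRAGD* had 1.18 and 1.03, compared with 0.400 and 0.294 on chromosome 6. *FLCN* had 0.889 and 1.11, compared with 0.656 and 0.524 on chromosome 17. *RRAGC* had 0.988 and 0.494, compared with 0.468 and 0.352 on chromosome 1, and *RRAGA* had 0.462 in both, from 1 peak in each, compared with 0.303 and 0.228 on chromosome 9. Over all 6 windows, which add up to 508 kb, the density was 0.925 and 0.669, compared with 0.360 and 0.268 over chromosomes 1 to 22 and X. The chromosome values include stretches without genes or mappable sequence.

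**Figure D4:**
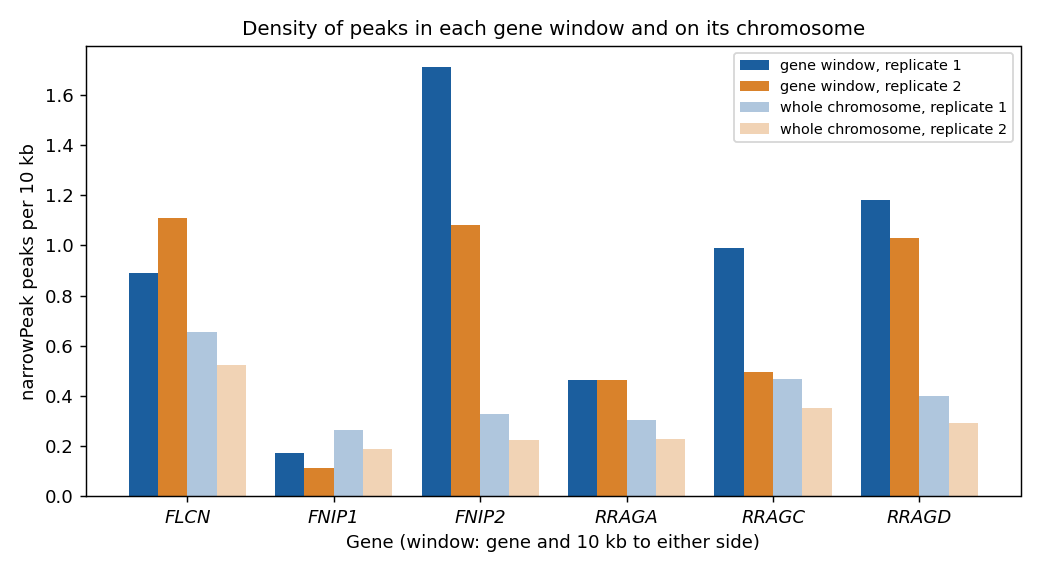
narrowPeak peaks per 10 kb (vertical axis) in the window of each gene with 10 kb to either side and on its whole chromosome (horizontal axis: gene; solid bars: gene window, pale bars: chromosome; colors: replicates). *FNIP1* is below its chromosome in both replicates, at 0.171 and 0.114, whereas all other genes stand above theirs, *RRAGA* with 1 peak in each replicate.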

How the data were processed

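HA-PRCC-TFE3 ChIP-seq and input DNA were analysed from the deposited peak lists, called for each sample separately. Peak calling, by the methods of the study, used MACS within Strand NGS and compared ChIP with input DNA. The study describes its p-value threshold for binding sites as stringent. The narrowPeak lists used here reached down to a −log10 q of 1.31 in replicate 1 and 1.35 in replicate 2. The submitters' processing notes name hg19. The aligner is not given in the sources used here. In the deposited narrowPeak lists each peak had a fold enrichment ratio, a −log10 p and −log10 q value and a score. In the deposited BED lists, which had the column order of HOMER and displaced header names, each peak had a tag count, a normalized signal (tags per 10000000), a score, a fold ratio over input, p-values and a focus fraction. Scores of either list, and the p-values and focus fraction of the BED lists, were not used. The −log10 p of the narrowPeak lists served only for an alternative threshold. Library totals were the sum of tags over the sum of the normalized signal in the BED lists. Input tags were recovered as the quotient of tags and fold over input. In 46.1% and 46.9% of the peaks this quotient had its lowest value, 0.5 of the step between the higher values, which was read as 0 input tags. Of the other peaks, 100% came out within 0.1 of a whole number of steps in both lists.

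The gene positions in hg19, the 6 genes and all lists were chosen with earlier results of these data known. The text names these 6 genes, the peaks in their promoters and the strongest shared region of each. The promoter was the start ± 1 kb, and peaks of the replicates that shared 1 bp or more formed a region. Tags were compared with two-sided exact binomial tests and Benjamini-Hochberg adjustment. Only the test of the replicate split was tried on simulated data, and the test of promoter pairs was not. Intervals are 95%, and they cover counting error only. The study describes the ChIP libraries as biological replicates, from chromatin cut with micrococcal nuclease. Gene neighbours and promoter sequences came from RefSeq (GRCh38.p14), and no coordinates were converted. Python 3.11.15, pandas 2.3.3, numpy 2.4.6, scipy 1.17.1 and matplotlib 3.10.9 were used.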

Additional observations from a re-analysis of the deposited data

How the results depend on the processing

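Of the 39 alternatives, 31 left their value about the same and 8 moved it. For the pairs of promoters, counts were scored although the number of tests differed. By count, summing both replicates was scored as the same and leaving out either replicate as moved. By the share called, the reverse holds, at 40% and 13.3% compared with 13.3%. Only the size of a change was scored, so a reversal could not have been recorded. The 6 promoters with a shared region remained 6 with windows of 500 or 2000 bp, with summits required inside the window and with either replicate alone. They were 5 with the BED lists, since the *RRAGA* windows did not overlap, and 5 with q below 1e-05 or p below 1e-10, which removed *RRAGD*. With p below 1e-10, the peaks of the 6 genes fell from 47 to 27 in replicate 1 and from 34 to 22 in replicate 2. Without *FNIP2*, a setting chosen after the data were examined, 20 and 17 peaks and 15 of the 29 shared regions were left. Under the other definitions of overlap, lists and thresholds there were 20 to 26 shared regions. The pairs of promoters called rose from 4 of 30 (13.3%) to 12 of 30 (40%) when all BED peaks of a promoter were summed (*RRAGC* has 2 in each replicate, and *RRAGD* 2 in replicate 1), and were 2 of 15 (13.3%) with either replicate left out and 6 of 15 (40%) with both summed. Each gene kept its strongest region when ranked by tags or −log10 q. Other genes of the lysosomal amino acid pathway were not run, because no hg19 annotation was used. No paired analysis was possible because no replicate number is given for the input DNA, and both ChIP libraries belong to 1 group. The promoter windows held 8 to 46 tags, so small differences between them were not detectable at this depth.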

Other observations

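Besides *FNIP1* and *FNIP2*, the word GTCATATGAC was held by the RefSeq promoter windows of *SMARCAD1*, *LIPA*, which encodes lysosomal acid lipase, *LINC01087* and *LINC00837*. Binding at these 4 genes was not analysed here.

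The first region outside the *RRAGD* window, on chromosome 6 from 90062412 to 90062785, had fold enrichments of 15 and 16.9, compared with 5.35 and 4.30 at the *RRAGD* promoter. In the RefSeq order the next protein-coding gene on that side is *UBE2J1*, which encodes a ubiquitin-conjugating enzyme of the endoplasmic reticulum. Its position in hg19 was not used.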
